A study of Mus musculus with 675 samples.

Results

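The platelet-derived growth factors and their receptors form a family of 6 genes, and all 6 were measured in the single cells described here. The members are the ligands Pdgfa, Pdgfb, Pdgfc and Pdgfd and the receptors Pdgfra and Pdgfrb. They were chosen by gene symbol and not by any measured value, as 6 of the 46517 gene identifiers counted. The choice was made with earlier results of these data known. Over all cells the members held 33430 (Pdgfa), 5356 (Pdgfb), 5308 (Pdgfc), 33744 (Pdgfd), 8673 (Pdgfra) and 44215 (Pdgfrb) counts. The cells were 675 single cells labelled as aorta, from male C57BL/6 mice aged 10 weeks, with no transgene, treatment or disease in the labels. RNA was read by Smart-seq2, a plate method that amplifies full-length cDNA of 1 sorted cell per well and adds no molecular identifiers. By the labels, 54.4% of the cells came from 1 plate and 1 pair of pooled mice (pool A), and 45.6% came from a different plate and pair (pool B). Each pool counts as 1 replicate (n = 2), and its plate and mice cannot be told apart. The preparation protocol names the heart as the dissociated organ while the tissue label is aorta, and the sources used here do not state the sorting gate.

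PDGF ligands are secreted dimers that act through 2 receptor tyrosine kinases. PDGF-A and PDGF-C act mainly through the alpha receptor, PDGF-D through the beta receptor, and PDGF-B binds both. PDGF-C and PDGF-D are secreted in a latent form with an inhibitory CUB domain that proteases remove. In vessel walls, PDGF-B of endothelial cells is known for recruiting mural cells that carry the beta receptor, and the alpha receptor is widely used as a marker of fibroblasts and other mesenchymal cells.

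The cells fell into 3 classes that were formed without any of the 6 members. There were 573 smooth muscle-like cells (83.7% of pool A and 86.4% of pool B), 76 fibroblast-like cells (44 in pool A and 32 in pool B) and 26 endothelial-like cells (16 and 10). A cell held 52000 to 608582 counts in pool A and 51886 to 713700 counts in pool B. The median per cell in pools A and B was 292628 and 326865 counts in smooth muscle-like cells, 154445 and 141164 in fibroblast-like cells, and 231789 and 175719 in endothelial-like cells. All 7 smooth muscle, all 8 fibroblast and all 9 endothelial markers reached 100 CPM, counts of a gene per 1000000 counts of the summed cells, in both pools of the class named for them. Smooth muscle markers also reached 100 CPM in the other classes. In pools A and B these were 6 and 7 in fibroblast-like cells (all 7 summed to 3741 and 5085 CPM). In endothelial-like cells they were 4 and 5 (2064 and 3047 CPM). The part of such RNA in the members' levels was not tested. Of the 4 clusters in the smooth muscle-like class, cluster 0 (57.5% of pool A and 13.3% of pool B) had 3 mast cell markers (Tpsb2, Cpa3 and Cma1) among its 10 leading genes. Its 5 mast cell markers summed to 106.9 CPM in pool A and were all at 0 in pool B, and its 7 smooth muscle markers summed to 19720 and 18800 CPM. The 6 platelet markers, of a cell type that stores PDGF, summed to 142.7 and 19.8 CPM in cluster 0, the larger part of the smooth muscle-like cells of pool A, to 234.2 and 25.7 CPM in fibroblast-like cells of a finer clustering described further on, and to 59.9 and 1.01 CPM in endothelial-like cells. None of them reached 100 CPM in any class, and their part in the members' levels was not tested. Cluster 1 (4.63% of pool A and 63.3% of pool B) had the cardiac genes Tnnt2 and Myh6 beside the smooth muscle marker Des among its leading genes, and its 6 cardiomyocyte markers summed to 54.2 and 85.7 CPM. Pericyte markers were present outside the smooth muscle-like class: the mural cell gene Rgs5 was at 556 and 281.7 CPM in smooth muscle-like, 639 and 592 CPM in fibroblast-like and 502 and 1168 CPM in endothelial-like cells.

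The 250 bases upstream of the RefSeq start (GRCm38.p6) are given for the receptor with the widest gap between classes and for 2 ligands with their highest level in smooth muscle-like cells. The windows are chr5:75152001-75152250 for Pdgfra, chr3:81036166-81036415 for Pdgfc and chr9:6168236-6168485 for Pdgfd, all on the plus strand, written 5′ to 3′ with motif matches in capitals. 
Pdgfra: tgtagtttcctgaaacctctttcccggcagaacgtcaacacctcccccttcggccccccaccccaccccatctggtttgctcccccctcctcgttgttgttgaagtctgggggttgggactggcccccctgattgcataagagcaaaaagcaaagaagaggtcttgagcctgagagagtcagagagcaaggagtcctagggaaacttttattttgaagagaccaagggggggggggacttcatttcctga
Pdgfc: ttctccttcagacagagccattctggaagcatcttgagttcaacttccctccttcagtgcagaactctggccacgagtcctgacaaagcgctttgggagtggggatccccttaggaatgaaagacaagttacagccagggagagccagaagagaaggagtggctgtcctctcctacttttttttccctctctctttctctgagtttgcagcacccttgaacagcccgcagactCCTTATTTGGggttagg
Pdgfd: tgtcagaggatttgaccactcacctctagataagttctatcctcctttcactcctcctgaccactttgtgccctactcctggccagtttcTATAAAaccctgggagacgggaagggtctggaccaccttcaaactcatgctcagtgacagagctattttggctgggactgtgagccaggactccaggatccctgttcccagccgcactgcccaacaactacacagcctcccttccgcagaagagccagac
Both strands were searched for the CArG box, the site of serum response factor in many contractile genes, for the GC box GGGCGG, for the AP-1 site TGANTCA and for the TATA box TATAAA. The windows shown held 1 match each at most. The Pdgfc window held 1 CArG box, which occurs in 1.47% of the 32851 RefSeq windows of this length. The Pdgfd window held 1 TATA box, which occurs in 12.4% of them. The Pdgfra window held no match to any of the 4 motifs, of which the GC box occurs in 32.7% and the AP-1 site in 6.75% of all windows. These matches are letters in a window and do not show binding. Both Pdgfa windows overlapped annotated exons and are not shown.

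The members lie on 5 chromosomes of the GRCm38 mouse assembly. Pdgfa (ENSMUSG00000025856) spans positions 138976014 to 138997370 of chromosome 5 on the minus strand. Pdgfb (ENSMUSG00000000489) spans 79995874 to 80014977 of chromosome 15 on the minus strand. Pdgfc (ENSMUSG00000028019) spans 81036416 to 81214040 of chromosome 3, Pdgfd (ENSMUSG00000032006) 6168584 to 6378850 of chromosome 9, Pdgfra (ENSMUSG00000029231) 75152292 to 75198215 of chromosome 5, and Pdgfrb (ENSMUSG00000024620) 61045150 to 61085061 of chromosome 18, all on the plus strand. Counts were made over exons of whole genes. The counting is not stated to use strand, so reads of Pdgfa and of the antisense gene 6330403L08Rik, which held 5577 counts over all cells, cannot be told apart where they overlap. That is 16.7% of the Pdgfa total. The antisense gene Gm16000 held 3.22% as many counts as Pdgfc. At Pdgfra, the antisense gene Gm42802 held 0.530%, Gm42803 0.254% and the microRNA gene Mir7025 1.48% as many counts as the receptor.

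Pdgfa, a ligand of the alpha receptor and a mitogen for mesenchymal cells, was carried mostly by smooth muscle-like cells. Its summed level in pools A and B was 195.1 and 171.8 CPM in smooth muscle-like, 40.1 and 60.2 CPM in fibroblast-like, and 7.75 and 66.7 CPM in endothelial-like cells. Both smooth muscle-like values lay above all 4 others, while the fibroblast-like and endothelial-like values overlapped. At least 1 Pdgfa count was found in 88.3% and 92.5% of smooth muscle-like cells, 43.2% and 65.6% of fibroblast-like cells, and 31.2% and 70% of endothelial-like cells. At 10 or more counts the share was 66.8% and 70.7% for smooth muscle-like, 15.9% and 9.38% for fibroblast-like, and 6.25% and 10% for endothelial-like cells. The level outside smooth muscle-like cells rested on few cells. One fibroblast-like cell of pool B, with Rgs5 at 2883 CPM, held 58.9% of that sum, and without it Pdgfa was at 26.8 CPM there. One endothelial-like cell held 76.9% of the sum in pool A and another 81.8% in pool B, and without them Pdgfa was at 2.03 and 16.4 CPM. The cell of pool A had 2839 CPM of Rgs5 and that of pool B 19.3 CPM.

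Pdgfd, the latent ligand of the beta receptor, was the other ligand found in most smooth muscle-like cells. By a minimum of 1 count it was found in most cells of each class. Its level was 169.3 and 194.2 CPM in smooth muscle-like, 68.7 and 84.7 CPM in fibroblast-like, and 135.1 and 32.3 CPM in endothelial-like cells. The smooth muscle-like values were above all others, and the endothelial-like pools lay on both sides of the fibroblast-like values. At 10 or more counts it was found in 61.2% and 75.9% of smooth muscle-like cells, 22.7% and 28.1% of fibroblast-like cells, and 25% and 10% of endothelial-like cells. In endothelial-like cells 1 cell held 42.8% of the Pdgfd counts of pool A and another 62.5% of those of pool B. Without these cells the level was 84.6 and 12.8 CPM. In fibroblast-like cells 1 cell of pool A, whose platelet markers summed to 565 CPM, held 26.2% of the Pdgfd counts, and without it the level was 51.4 CPM there.

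Pdgfc, the latent ligand of the alpha receptor, was lower in every class. It was at 36.6 and 21.6 CPM in smooth muscle-like and 6.75 and 11.3 CPM in fibroblast-like, and endothelial-like cells held 2 counts in each pool. Smooth muscle-like cells carried it unevenly, with at least 1 count in 32.2% and 33.8% of cells, a median of 0, and 756 and 287.6 CPM in the highest cell of pools A and B. In fibroblast-like cells 1 cell held 50.9% of the counts in pool A and another held 76.8% in pool B. Both of those sums were small, at 53 and 56 counts.

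Pdgfb, the ligand of both receptors, was highest in endothelial-like cells. Its level was 20.2 and 19.4 CPM in smooth muscle-like, 0.637 and 0.402 CPM in fibroblast-like, and 384 and 273.2 CPM in endothelial-like cells. The 3 classes did not overlap. The fibroblast-like values rest on 5 and 2 counts. In the same cells the endothelial markers Cdh5 and Tie1 were at 1.53 and 0 CPM and at 1.4 and 0.201 CPM. All 9 endothelial markers summed to 502.4 and 526.2 CPM there. Whether these Pdgfb counts are background was not tested. In endothelial-like cells Pdgfb was found at 10 or more counts in 56.2% and 50% of cells, with a median of 326.98 and 102.02 CPM per cell and 1145 and 1058 CPM in the highest cell. A minority of smooth muscle-like cells carried it: 26.1% (95% exact Clopper-Pearson interval 21.2 to 31.3) and 24.8% (19.7 to 30.5) had at least 1 count, and 11.1% and 10.2% had 10 or more. At 10 or more counts, Cdh5 and Tie1 were found in 0% of the same smooth muscle-like cells in both pools, and Emcn in 0.326% and 0%. These 3 were under 1 CPM there, while 4 (pool A) and 3 (pool B) of the 9 endothelial markers reached 10 CPM. In pool B 1 of the 9 reached 100 CPM, above the Pdgfb level. The smooth muscle-like cell with the most Pdgfb counts in pool A (440 CPM) also held endothelial markers that summed to 642 CPM, and without it Pdgfb was at 18.3 CPM there. Intervals here give counting error alone, because amplified reads are not independent molecules.

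**Figure D1:**
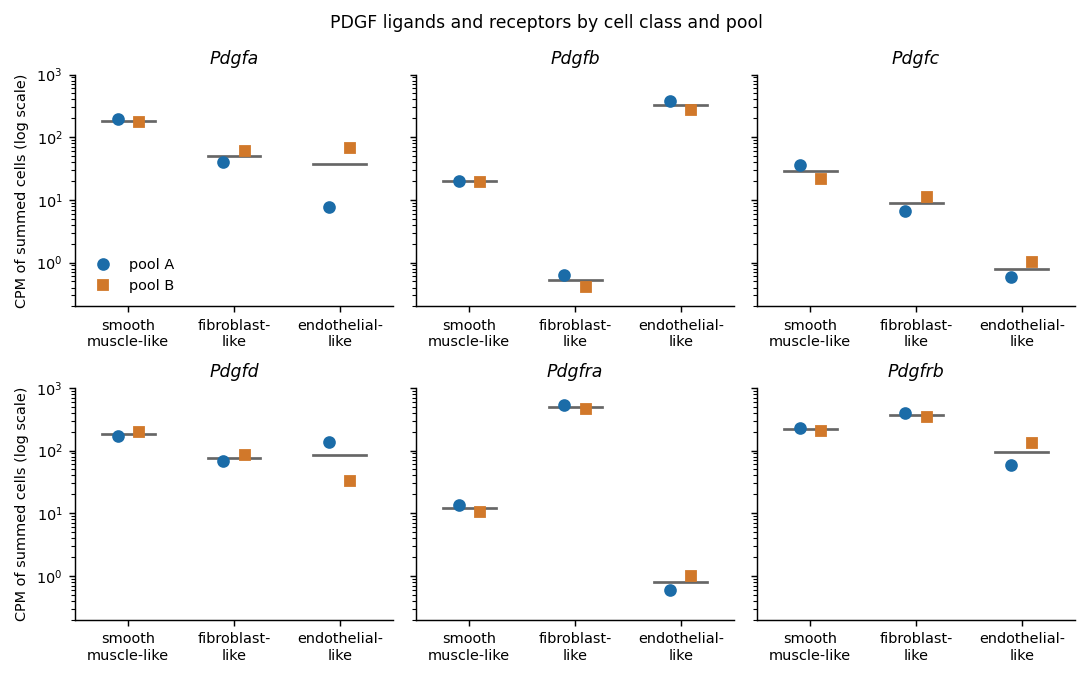
Level of each PDGF gene in CPM (log scale) in the summed cells of each class, with 1 point per pool and a grey bar at the mean of both pools. Pdgfa and Pdgfd are highest in smooth muscle-like cells, Pdgfb in endothelial-like cells (384 and 273.2 CPM), and Pdgfra in fibroblast-like cells (537 and 463 CPM).

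Pdgfra, the alpha receptor, was highest in fibroblast-like cells. Its level was 13.6 and 10.5 CPM in smooth muscle-like and 537 and 463 CPM in fibroblast-like, and endothelial-like cells held 2 counts in each pool. The classes did not overlap. At least 1 count was found in 22.5% and 29.7% of smooth muscle-like cells, against 22.8% and 24.1% for Dpt, 37.1% and 41% for Pi16 and 13.7% and 7.89% for Clec3b, all fibroblast markers. Thinned to 20000 counts per cell, Pdgfra was found in 8.14% and 10.2% of smooth muscle-like cells, above Dpt (2.61% and 1.88%), Pi16 (2.61% and 3.76%) and Clec3b (2.61% in pool A, and less in pool B). At 10 or more counts the share of smooth muscle-like cells was 6.51% and 7.52% for Pdgfra, against 0.326% and 0.376% for Dpt and 0% and 0.376% for both Pi16 and Clec3b. Dpt, Pi16 and Clec3b do not stand for the whole marker list. Of its 8 fibroblast markers, 2 reached 100 CPM in the smooth muscle-like class of each pool, above Pdgfra. In fibroblast-like cells 75% and 56.2% had 10 or more Pdgfra counts, and the median was 429 and 186.5 CPM. Endothelial-like cells held Pdgfra at a low level, as they did the fibroblast markers Dpt and Pi16. Pdgfra was at 0.596 and 1.01 CPM, Dpt at 0.895 and 0.505 CPM and Pi16 at 2.09 and 4.55 CPM. Of the 8 fibroblast markers, 1 (pool A) and 3 (pool B) reached 100 CPM in this class.

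Pdgfrb, the beta receptor and a marker of mural cells, was present in both mesenchymal classes. Its level was 229.7 and 207.3 CPM in smooth muscle-like, 402 and 344.7 CPM in fibroblast-like, and 58.2 and 131.8 CPM in endothelial-like cells, without overlap between the classes. At 10 or more counts it was found in 67.8% and 71.8% of smooth muscle-like cells and 56.8% and 53.1% of fibroblast-like cells. For endothelial-like cells the share was 6.25% and 30%. This minimum depends on depth, and smooth muscle-like cells had a higher median of counts per cell. With every cell thinned to equal counts, as for Pdgfra above, Pdgfrb was found in 69.7% and 74.1% of smooth muscle-like cells. The share was then 72.7% and 71.9% for fibroblast-like cells, so these classes overlapped in it. For endothelial-like cells it stayed at 6.25% and 30%. In endothelial-like cells, 1 cell held 95.4% of the Pdgfrb counts of pool A and another 84.3% of those of pool B. These cells had 2839 and 5967 CPM of Rgs5 beside summed endothelial markers of 5488 and 6363 CPM. Without them endothelial-like Pdgfrb was at 3.04 and 24.4 CPM.

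**Figure D2:**
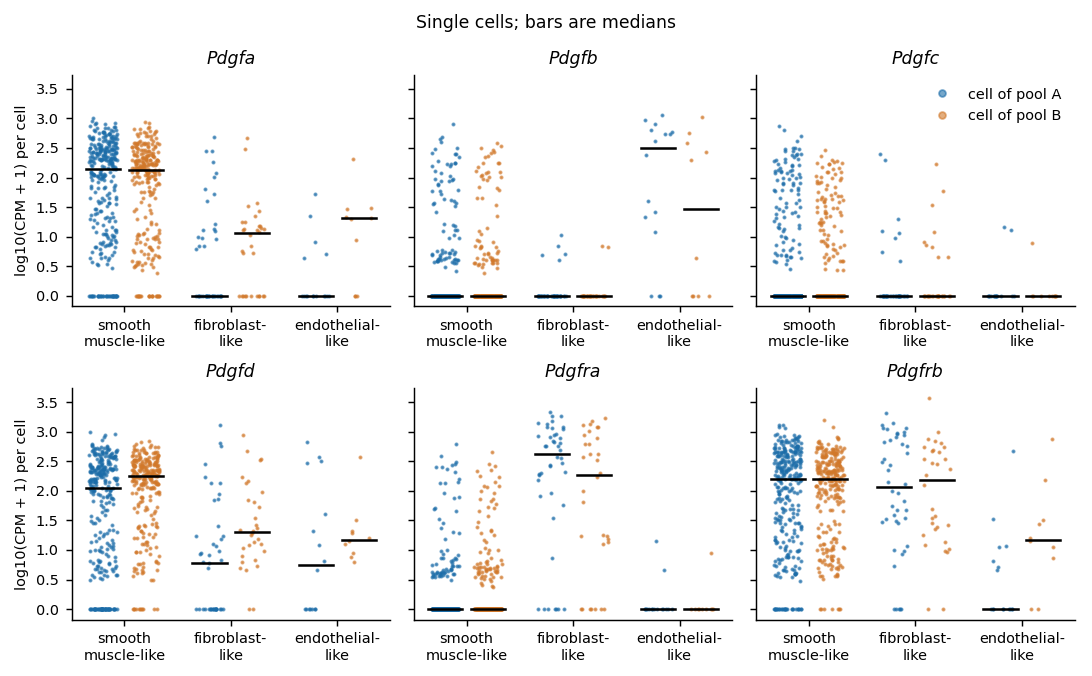
Each point is 1 cell, plotted as log10(CPM + 1) of each member by class and pool, with black bars at the median of a class and pool. Pdgfa, Pdgfd and Pdgfrb fill most smooth muscle-like cells, while Pdgfb, Pdgfc and Pdgfra have a median of 0 there and reach high values in few cells.

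Per exon length, as CPM per kilobase of exon (RPKM), the order of the members' levels differed between classes. In smooth muscle-like cells Pdgfa (58.8 ± 5.28, SD, n = 2 pools) and Pdgfd (57.6 ± 5.58) stood first and did not differ beyond their spread at this length, followed by Pdgfrb (39.9 ± 2.89). Pdgfc (5.71 ± 2.08) and Pdgfb (4.76 ± 0.125) came next and overlapped, and Pdgfra was last (1.20 ± 0.224). In fibroblast-like cells the order was Pdgfrb (68.2 ± 7.40), Pdgfra (49.9 ± 5.28), Pdgfd (24.3 ± 3.6), Pdgfa (16.1 ± 4.54), Pdgfc (1.77 ± 0.628) and Pdgfb (0.125 ± 0.0398), and no neighbours overlapped between pools at this length. In endothelial-like cells Pdgfb (79 ± 18.8) was first. Pdgfd (26.5 ± 23), Pdgfrb (17.3 ± 9.51) and Pdgfa (11.9 ± 13.4) followed and overlapped, and Pdgfc (0.158 ± 0.0575) and Pdgfra (0.0801 ± 0.0292) were last, on 2 counts per pool each. With the length of the longest transcript, Pdgfa (94.7 and 83.4 RPKM) lay above Pdgfd (54.1 and 62.03 RPKM) in smooth muscle-like cells. In fibroblast-like cells Pdgfa (19.5 and 29.2 RPKM) and Pdgfd (21.9 and 27.1 RPKM) then overlapped, and so did Pdgfra (78.6 and 67.7 RPKM) and Pdgfrb (74.1 and 63.6 RPKM). The order of these neighbours therefore turned on the length used.

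The receptors' ratio per exon length, Pdgfrb over Pdgfra, was 30.8 (pool A) and 36.2 (pool B) for smooth muscle-like cells, and 1.37 and 1.36 for fibroblast-like cells. With the longest transcript as the length, the ratio was 21.2 and 24.9 in smooth muscle-like cells and 0.943 and 0.939 in fibroblast-like cells, so which receptor was higher per length in fibroblast-like cells turned on the length used. In endothelial-like cells the ratio is set by 2 Pdgfra counts per pool and is not given.

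The first comparison set smooth muscle-like against fibroblast-like cells, within pools and over 8425 genes. The edgeR quasi-likelihood test with Benjamini-Hochberg adjustment called 1 of the 6 members at an adjusted p under 0.05, against 3.49% of all genes tested (1.25% higher and 2.24% lower). Pdgfra was lower in smooth muscle-like cells by a log2 fold change, the fitted log2 of the ratio of levels, of -5.45 ± 0.26 (SE, edgeR adjusted p = 0.00146). The ratio of smooth muscle-like over fibroblast-like CPM of Pdgfra was 0.0254 (pool A) and 0.0227 (pool B). Pdgfa was higher by 1.83 ± 0.34 on the log2 scale and missed the threshold (edgeR adjusted p = 0.0556). Among 12 alternative fits that differ from it and from each other its adjusted p ran from 0.000155 to 0.475, and 8 of them called it. One of these 8, chosen after the data were seen, left out fibroblast-like and endothelial-like cells with 100 CPM or more of Rgs5. It gave Pdgfa a log2 fold change of 3.06 (edgeR adjusted p = 0.00738), with fibroblast-like Pdgfa at 45.7 and 9.02 CPM in the remaining 39 and 28 cells. The log2 fold changes of the other members were 1.18 ± 0.27 for Pdgfd, -0.84 ± 0.21 for Pdgfrb, 1.62 ± 0.87 for Pdgfc and 5.19 ± 1.29 for Pdgfb, with edgeR adjusted p of 0.103, 0.124, 0.399 and 0.123. Each of these 4 had the same sign in both pools. For Pdgfb the ratio rests on few fibroblast-like counts and was 31.7 (95% counting interval 13.5 to 97.6) in pool A and 48.3 (13.3 to 399) in pool B.

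The second comparison set smooth muscle-like against endothelial-like cells over 8328 genes. In the edgeR test 2 of the 6 members passed, against 6.28% of all genes (2.86% higher and 3.42% lower). Pdgfb was lower in smooth muscle-like cells by a log2 fold change of -4.02 ± 0.62 (edgeR adjusted p = 1.2e-05), and Pdgfa was higher by 2.98 ± 0.87 (edgeR adjusted p = 0.0293). The Pdgfa ratio was 25.2 (pool A) and 2.58 (pool B), and the call was lost in 5 of 11 distinct alternative fits, with an adjusted p of 0.00499 to 0.351 over all 11. Pdgfb was called in each of these 11 fits. The fitted log2 fold changes of Pdgfd (1.45 ± 0.71), Pdgfrb (1.33 ± 0.61), Pdgfc (5.19 ± 2.21) and Pdgfra (3.95 ± 2.36) did not pass, with edgeR adjusted p of 0.296, 0.266, 0.216 and 0.380. The Pdgfd ratio was 1.25 (pool A) and 6.01 (pool B), and the Pdgfrb ratio 3.95 and 1.57, so both differed between the pools. The Pdgfc and Pdgfra values rest on 2 endothelial-like counts per pool. Those ratios were 61.3 (95% counting interval 17 to 506) and 21.3 (5.90 to 176.3) for Pdgfc in pools A and B, and 22.9 (6.32 to 189.2) and 10.4 (2.86 to 85.8) for Pdgfra. Without the 3 and 2 endothelial-like cells of 100 CPM or more of Rgs5, an alternative chosen after the data were seen, endothelial-like Pdgfrb was at 3.67 and 26.3 CPM and Pdgfrb was higher in smooth muscle-like cells by 4.31 on the log2 scale (edgeR adjusted p = 0.000811). Among all 11 alternatives the adjusted p of Pdgfrb ran from 0.000811 to 0.855.

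The third comparison set fibroblast-like against endothelial-like cells over 6102 genes. Here 2 of the 6 members passed in edgeR, against 3.47% of all genes (1.82% higher and 1.66% lower). Pdgfra was higher in fibroblast-like cells (log2 fold change 9.34 ± 0.78, edgeR adjusted p = 0.000242), and Pdgfb was lower (-9.18 ± 0.87, edgeR adjusted p = 0.000491). Because each rests on 2 to 5 counts in the lower class, the ratio is better read with its interval. For Pdgfra it was 901 (95% counting interval 249.3 to 7443) in pool A and 458 (126.6 to 3784) in pool B, and for Pdgfb 0.00166 (0.000538 to 0.00388) and 0.00147 (0.000178 to 0.00535). Pdgfrb had a log2 fold change of 2.14 ± 0.60 (edgeR adjusted p = 0.109), and 5.09 without the cells of 100 CPM or more of Rgs5 (edgeR adjusted p = 1.4e-05, within a range of 1.4e-05 to 0.804 over all alternatives). Pdgfa (1.15 ± 1.36), Pdgfc (3.49 ± 2.18) and Pdgfd (0.25 ± 0.99) were not called, with edgeR adjusted p of 0.838, 0.551 and 0.982. The Pdgfa and Pdgfd values changed sign between the pools. Another pair of fits, chosen after the data were seen, dealt with the clusters of uncertain name. Without cluster 0, smooth muscle-like cells had log2 fold changes of -5.65 for Pdgfra over fibroblast-like cells and of -4.22 for Pdgfb and 2.91 for Pdgfa over endothelial-like cells, all called by edgeR. Without clusters 0 and 1 these were -5.17, -4.00 and 2.92, and Pdgfa over endothelial-like cells was not called (edgeR adjusted p = 0.260), while Pdgfa over fibroblast-like cells was (1.84, edgeR adjusted p = 0.0444). The 3 comparisons share cells and are not independent of each other.

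**Figure D3:**
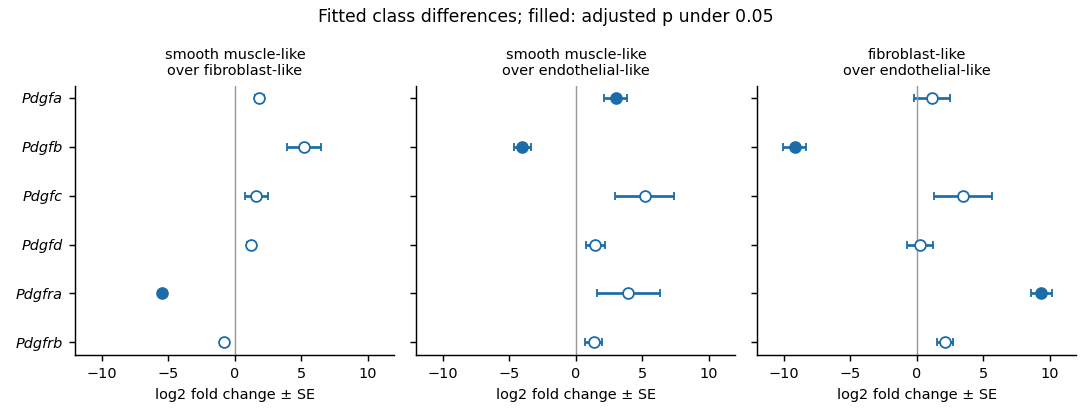
Log2 fold change of each member in the edgeR fit, with bars of 1 SE, for each pair of classes. Filled points have an adjusted p under 0.05: Pdgfra (-5.45) in the first panel, Pdgfa (2.98) and Pdgfb (-4.02) in the second, and Pdgfb (-9.18) and Pdgfra (9.34) in the third.

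In single cells the receptors were combined differently in each class. At least 1 count of Pdgfrb with none of Pdgfra was found in 71% and 68% of smooth muscle-like cells, both receptors in 20.2% and 29.3%, and Pdgfra alone in 2.28% and 0.376%. In fibroblast-like cells both receptors were found in 72.7% and 71.9%, Pdgfra alone in 11.4% and 6.25%, Pdgfrb alone in 15.9% and 21.9%, and every cell had a count of at least 1 receptor. This class includes 9 cells that were pericyte-like at a finer clustering described further on, and all had Pdgfrb alone. Without them both receptors were found in 82.1% and 82.1%, Pdgfra alone in 12.8% and 7.14%, and Pdgfrb alone in 5.13% and 10.7%. At 10 or more counts per gene, both receptors were found in 4.56% and 5.26% of smooth muscle-like cells and in 38.6% and 25% of fibroblast-like cells. Fibroblast-like cells with Pdgfra alone then made up 36.4% and 31.2%, and those with Pdgfrb alone 18.2% and 28.1%. With every cell thinned to 20000 counts, both receptors were found in 4.89% and 6.39% of smooth muscle-like cells and 54.5% and 40.6% of fibroblast-like cells. No endothelial-like cell had both, 0 of 16 and 0 of 10 cells.

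**Figure D4:**
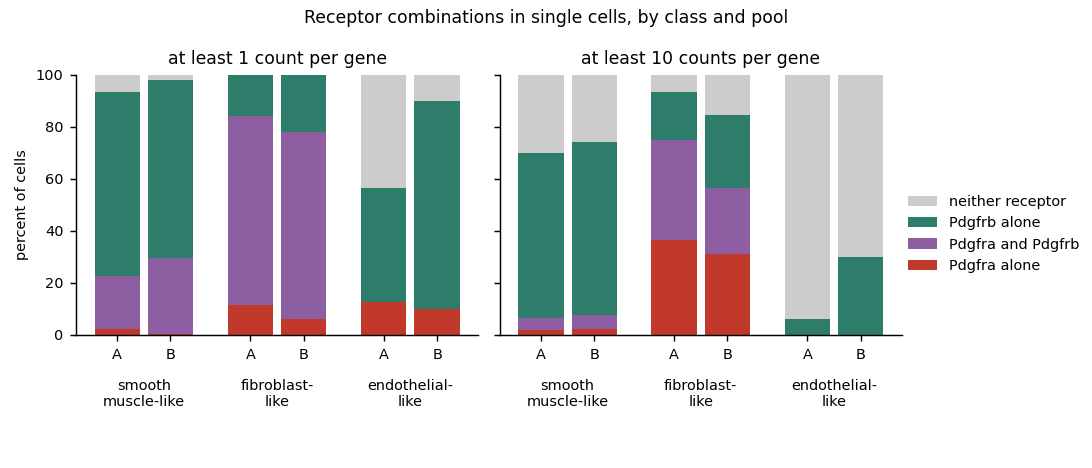
Percent of cells of each class and pool (A and B) with Pdgfra alone, both receptors, Pdgfrb alone or neither receptor, at a minimum of 1 count (left) and 10 counts (right) per gene. Pdgfrb alone is the largest part in smooth muscle-like cells (71% and 68% at 1 count), and cells with Pdgfra stand out in the fibroblast-like class.

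Ligand and receptor were often counted in the same smooth muscle-like cell. Pdgfa, Pdgfd and Pdgfrb each had at least 1 count in the same cell for 68.4% and 86.5% of the smooth muscle-like class, and 10 or more counts each in 30.9% and 40.2%. The same 3 genes at 10 or more counts were found together in 0% and 3.12% of fibroblast-like cells and in 6.25% and 0% of endothelial-like cells. Across smooth muscle-like cells the 3 levels varied with little relation to each other. Spearman's rho was 0.0859 and 0.0610 for Pdgfa with Pdgfd, 0.0853 and -0.0300 for Pdgfa with Pdgfrb, and -0.0898 and -0.106 for Pdgfd with Pdgfrb (all 573 cells, by pool; cells of a pool share plate and mice). Across fibroblast-like cells rho between Pdgfra and Pdgfrb was -0.262 and -0.112 (44 and 32 cells). These include the 9 pericyte-like cells, which had Pdgfrb and no Pdgfra count, and rho was not computed without them.

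Cells of the fibroblast-like class were not alike in their receptors. At a finer clustering (resolution 1.0 in place of 0.5) 67 of the 76 cells kept that name and the other 9, 5 in pool A and 4 in pool B, were pericyte-like. Their 7 pericyte markers summed to 6310 and 7139 CPM, beside 14600 and 10480 CPM for the 7 smooth muscle markers and 8968 and 5467 CPM for the 8 fibroblast markers, so they held RNA of all 3 lists. The pericyte-like cells held 0 Pdgfra counts in both pools, and Pdgfrb was at 932 and 364.04 CPM. In the 67 fibroblast-like cells Pdgfra was at 633 and 557 CPM and Pdgfrb at 308.2 and 340.7 CPM. Their Pdgfrb over Pdgfra ratio per exon length was 0.892 and 1.12. The pericyte-like cells also held 308.3 CPM of Pdgfa in pool B, against 10.2 CPM in pool A. Only 2 of the 4 cells of pool B had a Pdgfa count, 1 of them held 67.7% of the sum, and without it the level was 181.9 CPM. With the pericyte-like cells set apart, fibroblast-like Pdgfa was at 45.4 and 9.45 CPM. With the class so limited, the log2 fold change of Pdgfa in smooth muscle-like over fibroblast-like cells was 3.03 (edgeR adjusted p = 0.0262, within the range given above).

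**Figure D5:**
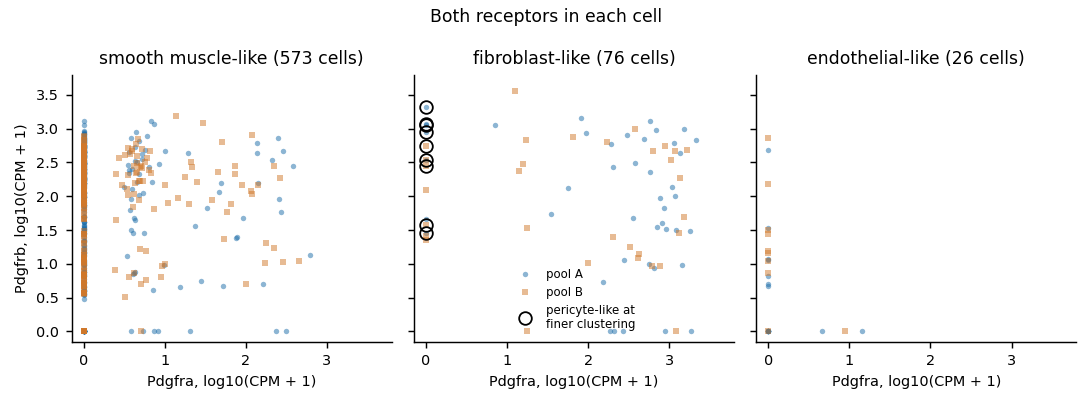
Pdgfrb against Pdgfra in each cell as log10(CPM + 1), by class, with pool A as circles and pool B as squares. Open circles mark the 9 pericyte-like cells, which all lie at 0 for Pdgfra, and most smooth muscle-like cells lie on or near that axis too.

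The smooth muscle-like clusters were set side by side by number, since their shares differ between plates. Clusters 0, 1 and 2 held 192.4, 174.5 and 213.4 CPM of Pdgfa in pool A and 192.7, 168.4 and 175.5 CPM in pool B. Pdgfrb was at 224.5, 264.7 and 241.7 CPM in pool A and at 192.6, 195.6 and 312.1 CPM in pool B, and Pdgfd at 166.2, 213.6 and 157.02 CPM in pool A and at 226.8, 189.1 and 212.9 CPM in pool B. The order of these clusters changed from pool to pool for each of the 3 genes. Cluster 5, with 6 and 11 cells and 2284 and 1975 CPM of Rgs5, held 0 and 2.41 CPM of Pdgfb and 16.5 and 53.6 CPM of Pdgfra. Its Pdgfc was at 125.7 and 0.483 CPM, and in pool A 1 of its 6 cells, with 2129 CPM of Rgs5, held all the Pdgfc counts of the cluster.

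Genes that act with the PDGF family were taken from 7 lists with 110 genes. Of the co-receptors and ligand binders, 4 of 5 were lower and none higher in smooth muscle-like than in fibroblast-like cells, with a median log2 fold change of -2.08, against 0.21 over all genes tested. Among all genes tested, 2.24% were lower and 1.25% higher. Nrp1, a co-receptor of PDGF and VEGF ligands, was at 46.9 and 42.4 CPM in smooth muscle-like and 385 and 235.6 CPM in fibroblast-like cells (log2 fold change -2.82 ± 0.28, edgeR adjusted p = 0.00864). Lrp1, an endocytic receptor that interacts with the beta receptor, was at 380 and 407 CPM in smooth muscle-like and 1411 and 1785 CPM in fibroblast-like cells (-2.08 ± 0.18, edgeR adjusted p = 0.00595). Thbs1, a matrix protein, was lower too (-2.94 ± 0.52, edgeR adjusted p = 0.0488). Over endothelial-like cells the same list had 1 gene higher, 2 lower and 2 not called, with a median of -1.54, against 0.67 over all genes. Among all genes, 2.86% were higher and 3.42% lower there. Lrp1 was higher in smooth muscle-like than in endothelial-like cells (3.31 ± 0.64, edgeR adjusted p = 0.000380), and Nrp1 (-4.40 ± 0.45, edgeR adjusted p = 3.3e-09) and Nrp2 (-4.32 ± 0.97, edgeR adjusted p = 0.00257) were lower. Over endothelial-like cells the fibroblast-like class was higher in 2 of these 5 genes, Lrp1 (5.36 ± 0.65, edgeR adjusted p = 0.00188) and Sparc, a matrix protein that binds PDGF-B (1.02 ± 0.19, edgeR adjusted p = 0.0203), and its median was 1.02, against 0.28 over all genes. In that comparison 1.82% of all genes were higher and 1.66% lower.

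Of the 7 proteases that process such ligands, 6 were tested in each comparison. Over all genes tested, 3.49%, 6.28% and 3.47% were called in the order of the comparisons above, with median log2 fold changes of 0.21, 0.67 and 0.28, and the counts of each list stand against these shares. In smooth muscle-like over fibroblast-like cells 1 was lower and 5 were not called (median -0.37), in smooth muscle-like over endothelial-like cells none was called (median 0.04), and in fibroblast-like over endothelial-like cells 1 was higher (median 1.20). The gene called was Pcsk6, a proprotein convertase, in both cases. Pcsk6 was at 7.82 and 7.20 CPM in smooth muscle-like and 372 and 136.4 CPM in fibroblast-like cells (log2 fold change -4.97 ± 0.45, edgeR adjusted p = 0.00698), and at 0.298 and 1.01 CPM in endothelial-like cells.

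Of the 47 receptor signalling genes, most were not called. Over fibroblast-like cells smooth muscle-like cells were lower in 2, higher in 0 and not called in 45 of 47 (median 0.01), against 3.49% of all genes called. The 2 were Fyn, a Src family kinase (-3.84 ± 0.63, edgeR adjusted p = 0.0398), and Pik3r1, a regulatory subunit of PI3K (-2.02 ± 0.31, edgeR adjusted p = 0.0316). Over endothelial-like cells they were higher in 2, the PI3K subunit Pik3r2 (5.55 ± 1.68, edgeR adjusted p = 0.0385, against 2.39 and 0.505 CPM in endothelial-like cells) and the kinase Akt2 (3.41 ± 0.99, edgeR adjusted p = 0.0290). They were lower in 4 of 47, so that 6 of 47 were called in all, against 6.28% of all genes (median of the list -0.07). The 4 include Fyn (-4.18 ± 1.26, edgeR adjusted p = 0.0376) and the kinase Mapk3 (-2.28 ± 0.53, edgeR adjusted p = 0.00389). In fibroblast-like over endothelial-like cells 0 of 46 tested were called (median -0.35), against 3.47% of all genes.

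Among 18 negative regulators, smooth muscle-like cells were lower in 2 over fibroblast-like cells (median -0.66) and in 1 over endothelial-like cells (median -0.51), and 0 were called in fibroblast-like over endothelial-like cells (median -0.02). Of all genes, 2.24% were lower in the first and 3.42% in the second of these comparisons, so 1 of 18 is near the share over all genes. Spry1, an inhibitor of receptor tyrosine kinase signalling, was at 10.6 and 11.1 CPM in smooth muscle-like and 90.4 and 103.2 CPM in fibroblast-like cells (-3.22 ± 0.43, edgeR adjusted p = 0.0221). Errfi1, a feedback inhibitor of EGF receptors, was at 72.1 and 70.6 CPM in smooth muscle-like and 366.1 and 411 CPM in fibroblast-like cells (-2.51 ± 0.24, edgeR adjusted p = 0.00752). Dusp6, a phosphatase of ERK kinases, was at 35.2 and 30.6 CPM in smooth muscle-like and 128.5 and 320.7 CPM in endothelial-like cells (-2.62 ± 0.70, edgeR adjusted p = 0.0146).

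Related receptors and ligands and early response genes completed the lists. Of all genes, 2.24% were lower in smooth muscle-like than in fibroblast-like cells, 3.42% lower in smooth muscle-like than in endothelial-like cells and 1.66% lower in fibroblast-like than in endothelial-like cells (medians of 0.21, 0.67 and 0.28). Of 6 related receptors, 4 were tested and 0 called in smooth muscle-like over fibroblast-like cells (median -0.31), while 3 of 5 were lower in smooth muscle-like than in endothelial-like cells (median -5.42) and 3 of 5 in fibroblast-like than in endothelial-like cells (median -4.14). These were the VEGF receptors Kdr, Flt1 and Flt4. Kdr was at 0.748 and 0.322 CPM in smooth muscle-like, 0.764 and 0.201 CPM in fibroblast-like and 1312 and 424 CPM in endothelial-like cells. Of 9 related ligands, 2 of 8 tested were lower in smooth muscle-like than in fibroblast-like cells (median -2.50), Vegfd (-4.19 ± 0.31, edgeR adjusted p = 0.00413) and Csf1 (-2.19 ± 0.32, edgeR adjusted p = 0.0295). In smooth muscle-like over endothelial-like cells 2 of 8 were lower (median -0.91), Vegfc (-4.51 ± 1.11, edgeR adjusted p = 0.00687) and Kitl (-4.37 ± 0.58, edgeR adjusted p = 8.5e-07). In fibroblast-like over endothelial-like cells Vegfd was higher and Kitl lower (-3.48 ± 0.58, edgeR adjusted p = 0.0103) among 7 tested (median 1.04). Of 18 early response genes 15 were tested: 1 was lower in smooth muscle-like than in fibroblast-like cells (median -0.25), Ccnd1, a cyclin (-4.12 ± 0.59, edgeR adjusted p = 0.0271). In smooth muscle-like over endothelial-like cells 4 were lower (median -1.08), among them the transcription factors Egr1 (-2.0 ± 0.30, edgeR adjusted p = 7.1e-06) and Junb (-1.95 ± 0.45, edgeR adjusted p = 0.00311) and the gene Ier2 (-1.94 ± 0.44, edgeR adjusted p = 0.00304). In fibroblast-like over endothelial-like cells 0 of 15 were called (median -1.06).

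The genes most like each member were found by Pearson's r of log2(CPM + 1) over the 6 class-by-pool sums, among 11103 genes with at least 10 CPM in at least 2 sums. With 6 sums of 3 classes many genes reach a high r, so the names are a description. For Pdgfra they were Best1, Rab3il1 and Zfp617 (r of 0.9995, 0.9994 and 0.9986), and Rab3il1 was at 4.83 and 3.30 CPM in smooth muscle-like, 98.5 and 95.8 CPM in fibroblast-like and 0 CPM in endothelial-like cells. For Pdgfb they were Id1, an inhibitor of differentiation factors (r = 0.999), Lipe, the hormone-sensitive lipase (0.996), and Exoc6 (0.995). For Pdgfrb they were Qpct (0.994), Timp2, an inhibitor of metalloproteinases (0.994), and Mfap5, a microfibril protein (0.994). For Pdgfa they were Cpe, a carboxypeptidase (0.996), Pip4k2c (0.994) and Map2k3 (0.994), for Pdgfc Ric3 (0.997), Mmp17 (0.995) and Steap2 (0.995), and for Pdgfd Rnf187 (0.998), Rcan3 (0.994) and Dcun1d1 (0.994). Among the members themselves r was -0.982 between Pdgfb and Pdgfra and 0.893 between Pdgfra and Pdgfrb.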

How the data were processed

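The authors deposited whole-number counts per gene and cell for 675 cells. Per the submitters' processing notes, the tools included bcl2fastq, Bowtie, Bowtie2, featureCounts and Subread with GRCm38 (mm10), with no version or setting stated in the labels. Reads of a gene are not corrected for amplification, so high counts of a cell may repeat few molecules. Symbols, coordinates and exon lengths came from GENCODE M21, which named 46005 of 46517 identifiers; promoter letters came from RefSeq.

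The members and all gene lists were chosen with earlier results of these data known. Genes were divided by a hash of the symbol into 23365 for clustering, with all markers, and 23115 for testing, with the members and lists; classes and tests still rest on 1 set of cells, so they are not independent. A minimum of 1000 genes and 20000 counts removed 0 cells, and no doublet caller was run. Leiden clustering (scanpy 1.11.5, leidenalg 0.10.2, resolution 0.5, seed 0) used log-scaled levels of 2000 variable genes, reduced to 20 components with 15 neighbours. Clusters were named from 97 markers of 16 cell types. The list gene Flt3l had no row, and 1 list gene that the naming rule picks is not reported here.

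Sums of counts per pool and class entered edgeR 4.0.16 under R 4.3.3 (filterByExpr, TMM, pool as a block), with its quasi-likelihood test and Benjamini-Hochberg adjustment over all genes tested (threshold 0.05). With n = 2 pools, pool as a block and 1 residual degree of freedom, p-values rest on how a class difference varies between these pools. The quasi-likelihood test also shares information on variance between all genes tested, so a p-value does not rest on the spread of 1 gene alone. It reports no SE. The SE printed with a log2 fold change is its absolute value divided by the square root of the F statistic. Classes of a pool come from the same mice: the pool A minus pool B differences over 4985 genes correlated with r = 0.309 (smooth muscle-like with fibroblast-like), 0.199 (smooth muscle-like with endothelial-like) and 0.0844 (fibroblast-like with endothelial-like). The test was also run on simulated sums without a difference between pools and with changes in well-counted genes only. That run does not cover members that rest on few counts. Named list genes are up to 3 per list, direction and comparison by log2 fold change among those called with at least 10 CPM in both pools of the higher class. Alternatives used DESeq2 1.42.0, limma 3.58.1, other normalization, filters, clustering and cells.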

Additional observations from a re-analysis of the deposited data

Results flagged for a closer look

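In fibroblast-like over endothelial-like cells 2 ligands changed direction between the pools, each pool being 1 plate and 2 mice, and the difference was not tested. Pdgfa had a log2 ratio of 2.37 (pool A) and -0.148 (pool B), from 40.1 and 60.2 CPM in fibroblast-like and 7.75 and 66.7 CPM in endothelial-like cells. Pdgfd had a log2 ratio of -0.976 (pool A) and 1.39 (pool B), from 68.7 and 84.7 CPM in fibroblast-like and 135.1 and 32.3 CPM in endothelial-like cells. Single cells held 76.9% and 81.8% of the endothelial-like Pdgfa counts in pools A and B, and 42.8% and 62.5% of the Pdgfd counts.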

How the results depend on the processing

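Of the members' values in alternative fits, 18 passed the threshold newly, 6 lost it, 4 changed sign, and the rest kept direction and side, with repeats of 1 fit counted once. Resolution 0.25 gave the same cells as 0.5, and resolution 1.0 gave the same fits as limiting the fibroblast-like class. The sign changes were of uncalled values: Pdgfrb in smooth muscle-like over endothelial-like cells (-0.19 in deeper cells, those with at least 2000 genes and 100000 counts), Pdgfa in fibroblast-like over endothelial-like cells (-0.57 in deeper cells, -0.043 with the fibroblast-like class limited and likewise -0.043 at resolution 1.0) and Pdgfd there (-0.065 without the replicate block). Lost calls were Pdgfa in smooth muscle-like over endothelial-like cells (edgeR adjusted p of 0.0628 with RLE normalization, 0.163 with 3 classes in 1 fit, 0.351 in deeper cells, 0.260 without clusters 0 and 1, and 0.239 without the replicate block) and Pdgfb in fibroblast-like over endothelial-like cells (limma adjusted p = 0.0686). The cause was not tested. Deeper cells were clustered and named anew, so cells also changed class in that setting. It had 17 and 11 endothelial-like cells in pools A and B, against 16 and 10 in the main fit. Its fibroblast-like cells were 33 and 17, against 44 and 32. Depth and class membership cannot be told apart there. Of 398 such values of named list genes, 97 lost the call and none changed sign.

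In smooth muscle-like over fibroblast-like cells 3.49% of genes tested and 1 member were called. This became 16.4% and 5 members with DESeq2, 3.78% and 2 with no filter, 1.02% and 2 with 3 classes in 1 fit, 5.21% and 2 with all genes, 6.95% and 2 in deeper cells and 6.18% and 2 in cells under 100 CPM of Rgs5. It became 2 members each at resolution 1.0, with the fibroblast-like class limited, in limma and without clusters 0 and 1. In smooth muscle-like over endothelial-like cells 6.28% of genes and 2 members were called. This became 16.6% of genes and 3 members with DESeq2, 3 members in cells under 100 CPM of Rgs5, 4.28% with 3 classes in 1 fit, 6.63% with all genes (1117 against 523 genes), 3.70% and 1 member in deeper cells, 4.01% and 1 member without clusters 0 and 1, and 1 member with RLE. Without the pool as a replicate block it became 1.99% and 1 member. In fibroblast-like over endothelial-like cells 3.47% of genes and 2 members were called, against 12.6% and 3 members with DESeq2, 3.99% and 3 members with no filter, 2.78% of a larger number with all genes, 6.47% and 3 members under 100 CPM of Rgs5, 2.05% without the replicate block, and 0.754% and 1 member in limma. The block changed no other member's call. RLE size factors moved the median of all genes by -0.0555, -0.167 and -0.115 on the log2 scale in the 3 comparisons. Of the genes called, 35.7% and 45.5% were higher in smooth muscle-like than in fibroblast-like and endothelial-like cells, against 47.1% and 56.1% with DESeq2.

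Within single pools, called log2 ratios ranged from -5.46 to -5.30 for Pdgfra in smooth muscle-like over fibroblast-like cells, from 1.37 to 4.65 for Pdgfa and -4.25 to -3.81 for Pdgfb in smooth muscle-like over endothelial-like cells, and from 8.84 to 9.82 for Pdgfra and -9.41 to -9.24 for Pdgfb in fibroblast-like over endothelial-like cells. With 1 pool no count of called genes can be tested. Depth limits Pdgfb in fibroblast-like cells and Pdgfra and Pdgfc in endothelial-like cells, each on 2 to 5 counts per pool.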
